A study of Mus musculus with 4 samples.

Results

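The genes described here drive the cell cycle and copy DNA. They are 40 mouse genes chosen by name, 13 for DNA replication, 9 for the passage from G1 to S, 14 for S, G2 and mitosis, and 4 inhibitors of cyclin-dependent kinases. Their transcripts were assayed in the posterior region of E9.5 embryos that were Jmjd3-/- or wild-type, with 2 independent RNA samples per genotype. The embryos came from crosses between Jmjd3+/- parents and were matched by somite number and time after mating. The labels name no other allele, do not describe the Jmjd3 lesion and do not say whether an RNA sample was 1 embryo or a pool, so p-values reflect only how far these samples spread, which may be partly technical. Each RNA gave Cy3-labelled cRNA for 1 Agilent array, on which oligonucleotide probes report transcript abundance as fluorescence. Replicate numbers are those of the labels, 1 and 9 for Jmjd3-/- and 3 and 4 for wild-type, and values of single arrays are given in the order 1, 9, 3, 4. A named probe was found for 38 of the 40 genes, among 18224 genes with one, and all 38 were well above background on all 4 arrays and were tested among 13583 genes. Rrm2 and Ccnd1 were not analysed here.

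The cell cycle runs on cyclins, which rise and fall, and on the kinases they activate. D-type cyclins with Cdk4 or Cdk6 and E-type cyclins with Cdk2 phosphorylate the retinoblastoma proteins, which releases E2F factors to switch on replication genes. A-type and B-type cyclins with Cdk1 then drive the cell into mitosis, and genes of that phase are often controlled through a promoter element called the CHR. Most cells of the embryo at this stage divide fast, and neurons are among the first to leave the cycle.

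Promoters of these genes hold short motifs known from genes of their phase, and some are shown here because the results below are ordered by the same roles. The RefSeq promoter table of GRCm38.p6, which gives 250 bases before to 50 after each start site, held 38 promoters for 34 of the 40 genes. The E2F motif, searched as TTTCCCGC, TTTGGCGC, TTTCGCGC or TTTGCCGC on both strands, was in 6 of 13 promoters of replication genes and 1 of 12 of mitosis genes, against 2.26% of all 32851 promoters. The CHR, searched as TTTGAA on both strands, was in 9 of 12 promoters of mitosis genes and 2 of 13 of replication genes, against 17.9% of all promoters. Neither motif was found in the 6 promoters of inhibitor genes. A match is a string of letters, not a measured binding site. Capitals mark 1 E2F match in each of the first 4 stretches and 1 CHR in each of the other 6. The stretch of Mki67 holds a further CHR in lower case, and that of Mcm5 a further E2F match on the opposite strand that overlaps the capitals. Each is read 5′ to 3′ on the strand of the gene and lies wholly before the start site. Where the motif matched on the opposite strand, the capitals are its reverse complement.
Mcm5: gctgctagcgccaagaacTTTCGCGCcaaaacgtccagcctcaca
Mcm6: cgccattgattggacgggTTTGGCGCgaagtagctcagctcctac
Mcm7: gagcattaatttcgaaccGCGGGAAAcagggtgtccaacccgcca
Cdc6: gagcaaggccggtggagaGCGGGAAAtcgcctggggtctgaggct
Mcm2: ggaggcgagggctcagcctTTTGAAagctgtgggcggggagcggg
Mki67: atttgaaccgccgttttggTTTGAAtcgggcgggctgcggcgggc
Top2a: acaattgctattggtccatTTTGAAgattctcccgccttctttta
Cdk1: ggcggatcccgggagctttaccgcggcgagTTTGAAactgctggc
Cdc20: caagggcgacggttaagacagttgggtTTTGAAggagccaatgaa
Kif11: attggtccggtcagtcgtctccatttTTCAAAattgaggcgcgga
In GRCm38.p6 the stretches lie at chr8:75109338-75109382 on the plus strand for Mcm5, chr1:128359726-128359770 on the minus strand for Mcm6, chr5:138172022-138172066 on the minus strand for Mcm7 and chr11:98907995-98908039 on the plus strand for Cdc6. Those of Mcm2, Mki67 and Top2a lie on the minus strand at chr6:88898825-88898869, chr7:135716452-135716496 and chr11:99024343-99024387. That of Cdk1 is at chr10:69352913-69352957 and that of Cdc20 at chr4:118437344-118437388, both on the minus strand, and that of Kif11 at chr19:37376337-37376381 on the plus strand.

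The arrays were read at similar brightness, with a 75th percentile of the processed signal of 578 to 627 units, 59.8% to 63.0% of probes well above background and 0 saturated probes. Their number limits the precision of every value. Kdm6b is the current name of Jmjd3. Its normalised log2 signal was 0.35 and 0.11 on the Jmjd3-/- arrays against 2.15 and 2.23 on the wild-type arrays. The log2 difference, Jmjd3-/- minus wild-type, was −1.96 (SE 0.12, limma adjusted p = 0.149), 25.7% of wild-type. The targeted gene itself thus missed the adjusted p threshold used below, so that threshold can miss differences of this size. The sources used here do not say whether the Kdm6b probe lies in the deleted part. Jmjd3-/- replicate 1 stood furthest from the others, with 705 to 805 genes over 2-fold from a wild-type array, and replicate 9 was nearer to the wild-type arrays, at 332 to 354 genes, than to replicate 1, at 431. All 4 arrays may lie on 1 slide, and position on it cannot be told apart from genotype.

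The comparison of genotypes asked which transcripts differ between Jmjd3-/- and wild-type posterior embryos. For the cell cycle the differences were small. Of the 38 genes tested, 0 passed an adjusted p of 0.05 (limma, Benjamini-Hochberg over 13583 genes) and 0 had an unadjusted p under 0.05, where 0.0368% and 11.1% of all genes did. The log2 differences, Jmjd3-/- minus wild-type, ran from −0.34 for Ccnd2 to 0.28 for Mki67, with 21 above 0 and 17 below, 46.9% of all genes being above 0, and a median of 0.01, against −0.01 over all genes. A difference beyond 1.5-fold was seen in 0 of the 38, against 7.85% of all genes. The median size of a difference, sign aside, was 0.07 for these genes and 0.12 for all genes.

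A p that misses the threshold does not show equal levels, so the 95% interval of each difference was taken from the same fit. It lay within 2-fold in both directions for all 38 genes, against 85.4% of all genes tested, and within 1.5-fold for 32, against 66.0%. The 6 whose interval reached beyond 1.5-fold were Ccnd2, Ccnb2, Mki67, Cdkn1b, Cdkn2c and Cdkn2d. Intervals and tests rest on 2 arrays per genotype. The genotypes did not overlap for 13 of the 38 genes, 8 higher and 5 lower in Jmjd3-/-, against 23.0% and 23.7% of all genes. For 30 of the 38 the genotype difference was smaller than the gap between the 2 arrays of at least 1 genotype, as for 69.6% of all genes.

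**Figure D1:**
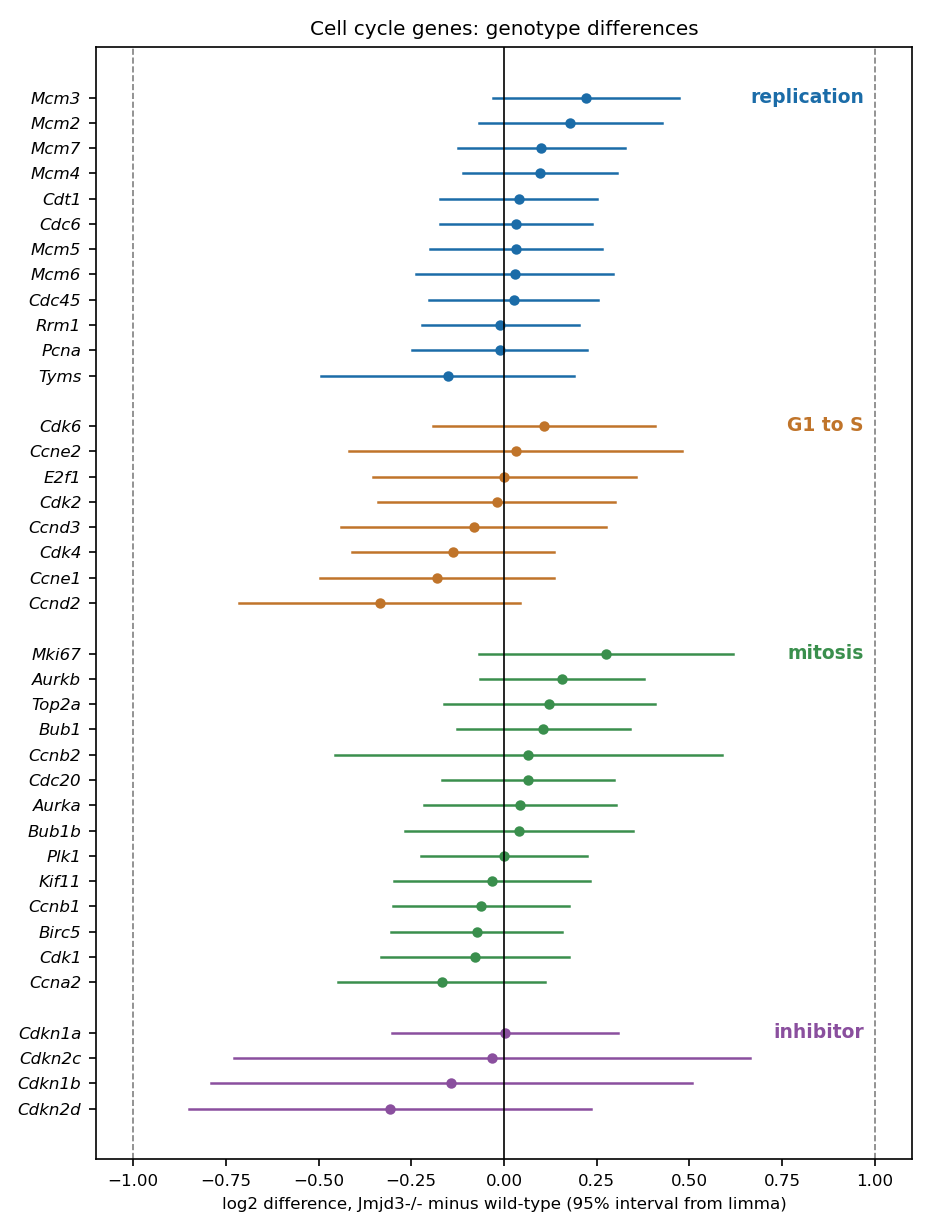
Log2 difference of each of the 38 genes (point) with its 95% interval from limma (line), grouped by role, with n = 2 arrays per genotype. All intervals cross 0 and stay within the dashed lines at a 2-fold difference, and the 3 widest belong to inhibitors.

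Replication genes lay closest to 0, with a median size of difference of 0.04. Of 12 tested, 9 were above 0 and 3 below, with a median difference of 0.03 and a range from −0.15 to 0.22, and all 12 intervals lay within 1.5-fold. Mcm2 to Mcm7 encode the ring-shaped helicase that opens DNA at origins, and all 6 had a difference above 0, from 0.03 for Mcm6 and Mcm5, which were at −0.05 and −0.02 without Jmjd3-/- replicate 9, to 0.22 for Mcm3. That common sign is no test, as the 6 share the same 4 arrays.

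Mcm3, a helicase subunit, had a log2 signal of 3.72 and 3.57 on the Jmjd3-/- arrays and of 3.42 and 3.43 on the wild-type arrays. Both Jmjd3-/- arrays were above both wild-type arrays. Its level in Jmjd3-/- was 117% of wild-type, with an interval from 97.9% to 139%, and the log2 difference was 0.22 (SE 0.09, n = 2 arrays of each genotype, limma adjusted p = 0.485). Mcm2, whose protein sits in the same ring, had 4.16 and 4.23 against 3.96 and 4.08. The genotypes again did not overlap, and the wild-type arrays lay further apart than the Jmjd3-/- arrays. Its difference was 0.18 (SE 0.09, limma adjusted p = 0.537). Mcm7 and Mcm4 differed by 0.10 each (SE 0.08 and 0.07), also without overlap, whereas Mcm5 and Mcm6 overlapped.

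The loading factors that place the helicase on DNA differed less. Cdc6 differed by 0.03 (SE 0.07), Cdt1 by 0.04 (SE 0.07) and Cdc45, which joins the helicase when it is switched on, by 0.03 (SE 0.08). Cdc6 was read by a further probe, with a difference of 0.28 against 0.03 for the brighter one, so its size depends on the probe. Pcna, the sliding clamp of DNA polymerases, differed by −0.01 (SE 0.08), with an interval from 84.3% to 117% of wild-type.

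Of the enzymes that supply nucleotides, Rrm1, a subunit of ribonucleotide reductase, differed by −0.01 (SE 0.07). Tyms, which makes thymidylate, had 4.91 and 5.18 on the Jmjd3-/- arrays and 5.22 and 5.17 on the wild-type arrays. Replicate 1 alone was low, and replicate 9 lay between the wild-type values. Its difference was −0.15 (SE 0.12, limma adjusted p = 0.671), and its other probe gave −0.19.

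The genes of the passage from G1 to S had a median difference of −0.05. Of 8 tested, 3 were above 0 and 5 below, where 46.9% of all genes were above 0. Without Jmjd3-/- replicate 1 the split was 4 above and 4 below, and without replicate 9 it was 2 and 6. The genotypes did not overlap for 3 of the 8, all lower in Jmjd3-/-, against 23.7% of all genes: Ccnd2, Ccne1 and Cdk4. The median deviation of the group from the wild-type mean was −0.17 in Jmjd3-/- replicate 1 and −0.02 in replicate 9, and the wild-type arrays were at 0.02 and −0.02. Without replicate 9 the median difference was therefore −0.17, and without replicate 1 it was −0.02.

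Ccnd2 encodes cyclin D2, a partner of Cdk4 and Cdk6 that responds to growth signals. Its log2 signal was 5.29 and 5.59 on the Jmjd3-/- arrays and 5.74 and 5.82 on the wild-type arrays. Both Jmjd3-/- arrays were below both wild-type arrays, and replicate 1 was lowest. The level was 79.2% of wild-type, with an interval from 60.9% to 103%, a log2 difference of −0.34 (SE 0.13, limma adjusted p = 0.483), the lowest adjusted p of the 38. The other 2 probes of the gene gave −0.29 and −0.27, and on each of them the genotypes did not overlap.

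Ccne1 encodes cyclin E1, which activates Cdk2 at the start of S phase. Its signal was 5.12 and 5.36 on the Jmjd3-/- arrays and 5.41 and 5.42 on the wild-type arrays. The wild-type arrays were nearly equal and both Jmjd3-/- arrays lay below them, replicate 9 by 0.06. Its difference was −0.18 (SE 0.11, limma adjusted p = 0.610), and the other probe gave −0.20. Cdk4, the kinase partner of D-type cyclins, had 4.72 and 4.89 against 4.94 and 4.95. The pattern was that of Ccne1, with most of the difference of −0.14 (SE 0.10, limma adjusted p = 0.640) in replicate 1.

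The other G1 to S genes overlapped between genotypes. Ccnd3, another D-type cyclin, differed by −0.08 (SE 0.13), Cdk2 by −0.02 (SE 0.11), Ccne2, the second E-type cyclin, by 0.03 (SE 0.16) and Cdk6, the other kinase partner of D-type cyclins, by 0.11 (SE 0.11). E2f1, the transcription factor that feeds replication genes, had 100% of the wild-type level, with an interval from 78.3% to 128%.

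**Figure D2:**
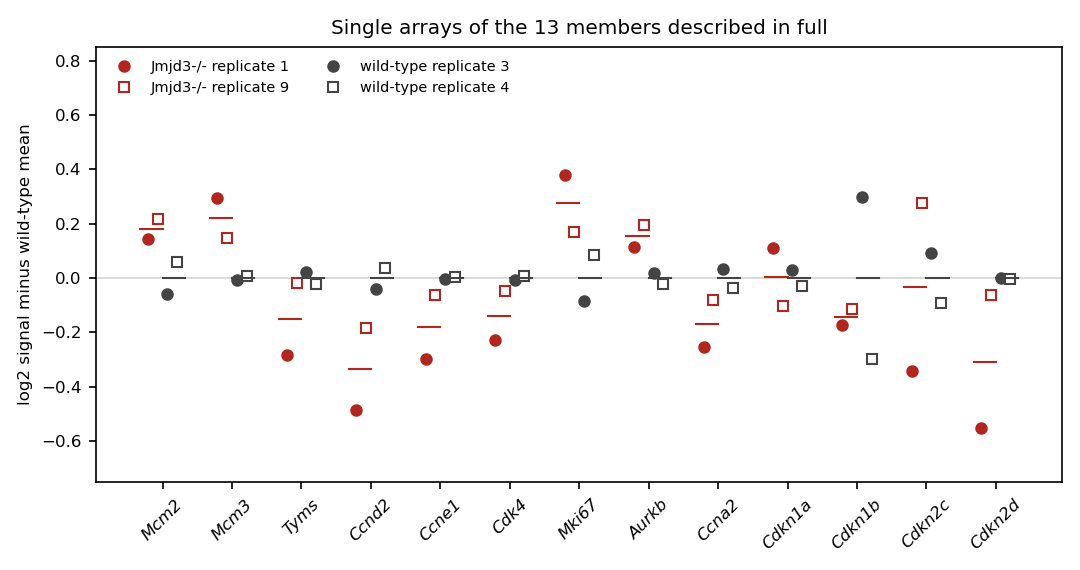
Log2 signal of each array minus the wild-type mean for 13 genes, the 3 largest differences of each of the first 3 roles and the 4 inhibitors, with Jmjd3-/- in red and wild-type in grey and short lines at the genotype means. Jmjd3-/- replicate 1 is the lowest array for Tyms, Ccnd2, Ccne1, Cdk4, Ccna2, Cdkn2c and Cdkn2d and the highest for Mcm3, Mki67 and Cdkn1a.

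Genes of S, G2 and mitosis had a median difference of 0.04, with 8 of 14 above 0, and 12 of their intervals lay within 1.5-fold. Mki67, the gene of the Ki-67 proliferation antigen, had the highest difference of the 38. Its signal was 4.87 and 4.66 on the Jmjd3-/- arrays and 4.40 and 4.57 on the wild-type arrays. Replicates 1 and 9 were both higher, replicate 9 by 0.09 over the nearer wild-type array. The level was 121% of wild-type, with an interval from 95.5% to 153%, a difference of 0.28 (SE 0.12, limma adjusted p = 0.510), and the other probe gave 0.28.

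Aurkb, the kinase of the chromosomal passenger complex, had 2.21 and 2.29 on the Jmjd3-/- arrays and 2.11 and 2.07 on the wild-type arrays. The genotypes did not overlap, and the difference was 0.16 (SE 0.08, limma adjusted p = 0.546). Birc5, which encodes survivin of the same complex, lay on the other side at −0.07 (SE 0.08). Ccna2, the cyclin of S and G2, had 4.16 and 4.34 against 4.45 and 4.38. The genotypes did not overlap, with a difference of −0.17 (SE 0.10, limma adjusted p = 0.594).

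Cdk1 differed by −0.08 (SE 0.09), Ccnb1, its cyclin B partner, by −0.06 (SE 0.08), and Plk1, a kinase of mitotic entry, by −0.00077 (SE 0.08), with an interval from 85.6% to 117% of wild-type. For Ccnb2 the wild-type arrays lay 0.46 apart, at 5.29 and 4.83, and the Jmjd3-/- arrays at 5.07 and 5.17 fell between them. Its difference of 0.07 (SE 0.18) had an interval from 72.9% to 150% of wild-type, and was −0.16 without wild-type replicate 4.

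The spindle checkpoint kinase genes Bub1 and Bub1b differed by 0.11 (SE 0.08) and 0.04 (SE 0.11), and Cdc20, the activator of the anaphase-promoting complex that the checkpoint restrains, by 0.06 (SE 0.08). Aurka, a kinase of the spindle poles, differed by 0.04 (SE 0.09), Top2a, which untangles sister DNA, by 0.12 (SE 0.10), and Kif11, a motor that pushes the poles apart, by −0.03 (SE 0.09). The dimmer probe of Kif11 gave −0.32, with both Jmjd3-/- arrays lower than both wild-type arrays, so its 2 probes differ in size.

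The 4 inhibitor genes had the widest intervals as a group, with a median SE of 0.21 against 0.09 for the 38 genes, and 1 of the 4 lay within 1.5-fold. Cdkn2d encodes p19, an inhibitor of Cdk4 and Cdk6. Its signal was 1.59 and 2.08 on the Jmjd3-/- arrays and 2.14 on each of the wild-type arrays. Replicate 1 was far lower than the other 3 arrays, and replicate 9 was 0.06 under the wild-type mean. The difference was −0.31 (SE 0.19, limma adjusted p = 0.610), 80.8% of wild-type with an interval from 55.5% to 118%.

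Cdkn1a, which encodes p21, the inhibitor that p53 induces, had −1.79 and −2.0 on the Jmjd3-/- arrays and −1.87 and −1.93 on the wild-type arrays. The wild-type values lay inside the Jmjd3-/- values. Its difference was 0.0027 (SE 0.11, limma adjusted p = 0.995), with an interval from 81.1% to 124% of wild-type, and its sign was negative with median scaling (−0.01) and with quantile normalisation (-7.62e-04).

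Cdkn1b, which encodes p27, had −1.21 and −1.15 against −0.74 and −1.33. Here the wild-type arrays lay furthest apart, by 0.60, and held both Jmjd3-/- values between them. Its difference was −0.14 (SE 0.23, limma adjusted p = 0.845), was 0.16 without wild-type replicate 3 and was −0.28 for the dimmer probe. Cdkn2c, which encodes p18, had −3.05 and −2.43 against −2.61 and −2.79. The Jmjd3-/- arrays lay on either side of wild-type, and the difference was −0.03 (SE 0.25, limma adjusted p = 0.971), or 0.02 with normexp background correction.

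**Figure D3:**
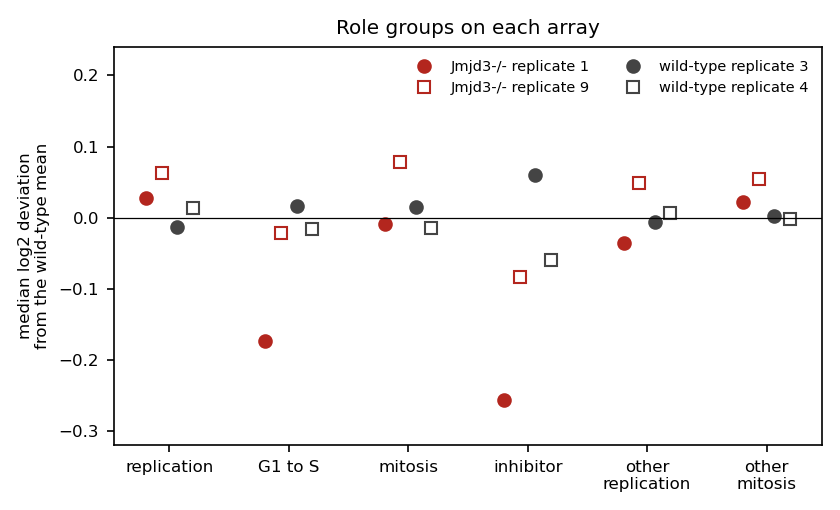
Median log2 deviation from the wild-type mean on each array, for the 4 role groups and for 2 further lists of replication and mitosis genes. Replication and mitosis medians stay between −0.04 and 0.08 on all arrays, and Jmjd3-/- replicate 1 lies at −0.17 for G1 to S genes and −0.26 for inhibitors.

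Set side by side, the role groups had median differences of 0.03 for replication, −0.05 for G1 to S, 0.04 for mitosis and −0.09 for inhibitors. The differences between these medians were not tested. The inhibitor median ranged from −0.26 without Jmjd3-/- replicate 9 to 0.05 without wild-type replicate 3, so it had no fixed direction. The replication median stayed above 0 when any 1 array was left out, from 0.02 to 0.06.

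Several probes read 15 of the 38 genes. Of the 17 further probes, 12 had the sign of the brightest probe and 5 the opposite, and the largest gap between 2 probes of a gene was 0.29. The 5 of opposite sign belonged to Bub1, Ccnb1, Cdk1 and Cdk2, whose brightest probes differed by 0.11 or less in size.

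**Figure D4:**
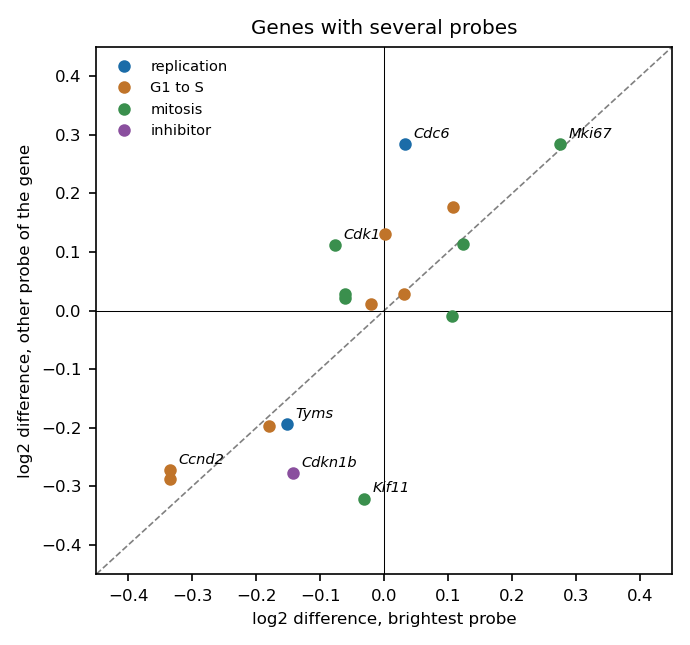
Log2 difference of each further probe against that of the brightest probe of the gene, for the 15 genes with several probes, with equality as a dashed line. Ccnd2, Ccne1 and Tyms are low on every probe and Mki67 high on both, whereas Cdc6 and Kif11 lie far from the line.

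The differences were also set against the promoter motifs. The 8 tested cell cycle genes with an E2F motif had differences from −0.08 to 0.22 with a median of 0.03, and the 11 with a CHR from −0.08 to 0.28 with a median of 0.04. Tested cell cycle genes with a promoter but without the motif had medians of −0.00077 for E2F (25 genes) and −0.011 for the CHR (22 genes). Over all tested genes with a promoter in the table, the median was 0.0022 for 479 genes with an E2F motif and −0.022 for 1551 with a CHR. Genes without the motif were at −0.015 for E2F (10346 genes) and −0.013 for the CHR (9274 genes). Whether a motif goes with a difference was not tested.

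Other genes of the same pathways were taken from longer lists. Of 42 further replication genes tested, 24 were above 0 and 18 below, with a median of 0.02. They ran from −1.44 for Prim2 (SE 0.84), whose genotypes overlapped, to 0.35. The limma fit called 0 of them, and 1 had an unadjusted p under 0.05, against 0.0368% and 11.1% of all genes. This was Pole, the catalytic subunit of a leading-strand polymerase, at 0.35 (SE 0.07, adjusted p = 0.335). Uhrf1, which keeps DNA methylation through replication, differed by 0.21 (SE 0.08) and Tk1, a thymidine kinase gene, by −0.24 (SE 0.12).

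Of 51 further mitosis genes, 29 were above 0 and 22 below, with a median of 0.04. They ran from −0.42 for Cdc25b (SE 0.30) to 0.91 for Cdkn3, with Pttg1 at 0.88 (SE 0.45). Limma called 0, and 2 had an unadjusted p under 0.05, both higher, against 5.15% of all genes. The genotypes did not overlap for 20 higher and 2 lower genes, 22 of 51, against 46.7% of all genes in either direction and 23.0% higher. Kif18b, a kinesin gene, differed by 0.37 (SE 0.08, limma adjusted p = 0.335) and Cenpe, a kinetochore motor gene, by 0.32 (SE 0.12, limma adjusted p = 0.455), or 0.21 when its probes were averaged.

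Cdkn3, which encodes a phosphatase that acts on Cdk1 and Cdk2, had 1.41 and 2.13 on the Jmjd3-/- arrays and 0.91 and 0.81 on the wild-type arrays. Both Jmjd3-/- arrays were higher, and they lay further from each other than the nearer one did from wild-type. The difference was 0.91 (SE 0.27, limma adjusted p = 0.405), or 0.53 when its probes were averaged.

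Of 16 genes of the RB and E2F families, limma called 0 and 0 had an unadjusted p under 0.05, against 0.0368% and 11.1% of all genes. The median was −0.01, with 7 above 0 and 9 below. The genotypes did not overlap for 5 higher and 4 lower genes of the 16, against 23.0% and 23.7% of all genes. E2f5, E2f6 and E2f3 differed by 0.22 (SE 0.08), 0.21 (SE 0.08) and 0.22 (SE 0.10), with both Jmjd3-/- arrays higher for each. The difference of E2f3 was 0.05 when its probes were averaged, so its size depends on the probe. E2f8 differed by −0.33 (SE 0.21), the lowest of the list, also without overlap. The adjusted p of the E2f5 difference was 0.462 (limma), the lowest of that list.

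Further inhibitors and targets of p53, the DNA damage response factor, spread more widely, with a median size of 0.28 over 24 genes against 0.07 for the 38. Of the 24, 15 were above 0 and 9 below, with a median difference of 0.04. Limma called 0, and 2 higher and 2 lower genes had an unadjusted p under 0.05, against 5.15% and 5.93% of all genes. Pmaip1, a pro-apoptotic p53 target, had 0.83 and 0.66 on the Jmjd3-/- arrays and −0.07 and −0.47 on the wild-type arrays. There was no overlap, with a difference of 1.01 (SE 0.18, limma adjusted p = 0.325). Btg2, an antiproliferative gene that p53 also induces, differed by 0.85 (SE 0.21, limma adjusted p = 0.356). Other p53 targets on the list lay on either side of 0. Phlda3, Bax, Perp and Bbc3 were at −0.71, −0.38, −0.34 and −0.26, all with overlapping genotypes. Mdm2 was at 0.0050 and Zmat3 at 0.30. Cdkn1c, which encodes the inhibitor p57, had 4.55 and 4.3 against 4.88 and 4.75. Both Jmjd3-/- arrays were lower, with a difference of −0.39 (SE 0.13, limma adjusted p = 0.421). Plk3, a kinase gene on the same list, had the difference furthest from 0, −1.28 (SE 0.42, limma adjusted p = 0.428), also without overlap.

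**Figure D5:**
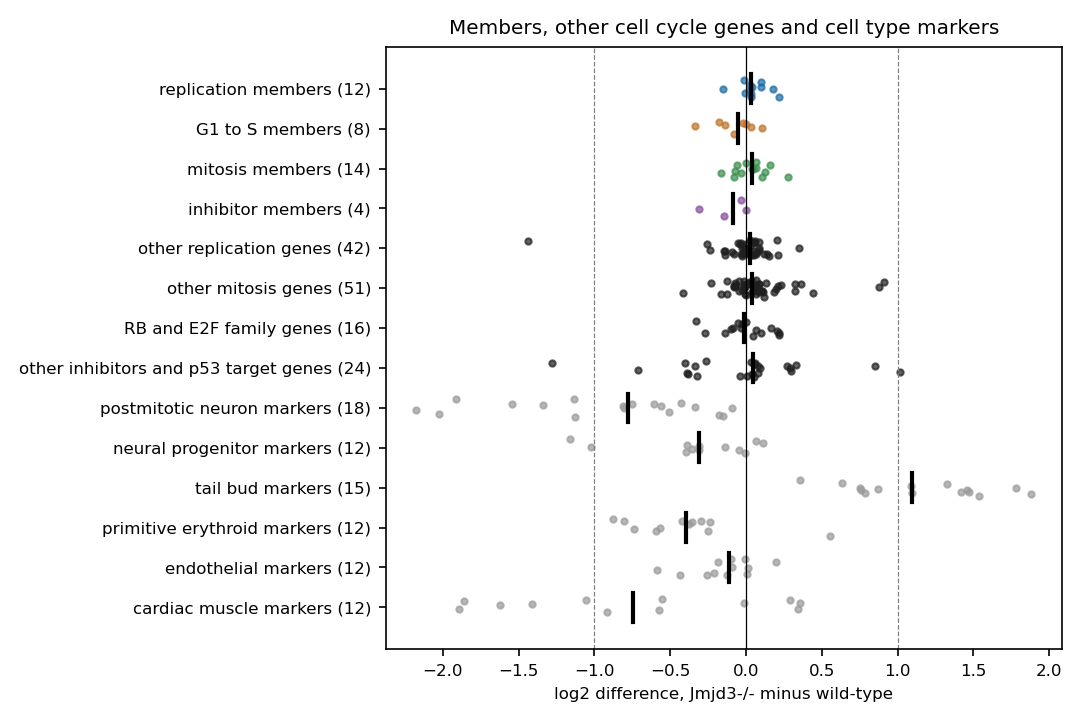
Log2 difference of every tested gene (points) and median (bar) for the 4 role groups, 4 further lists of cell cycle genes and 6 lists of cell type markers, with the number tested in brackets. The 38 genes lie between −0.34 and 0.28, while medians of the marker lists run from −0.78 for neurons, or −0.60 over those well above background on all 4 arrays, to 1.09 for the tail bud.

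Markers of cell types in the sample were spread further from 0 than the cell cycle genes, though limma called 0 of them. All 15 tail bud markers were above 0, 11 of them at an unadjusted p under 0.05 (5.15% of all genes were higher at that level), with a median of 1.09, or 1.64 without Jmjd3-/- replicate 9. Their summed level, in units of the array's 75th percentile, was 37.5 to 66.2 in Jmjd3-/- and 19.8 to 21.6 in wild-type. Cdx1, Cdx2 and Wnt3a differed by 0.79 (SE 0.11), 1.45 (SE 0.23) and 1.42 (SE 0.25), and Cdx1 was at 0.49 with normexp. Of 24 neuron markers listed, 18 were tested, of which Dcx, Lhx3 and Neurod4 passed the filter only through wild-type, where they are high. The other 15 were well above background on all 4 arrays and all below 0, 9 of them at an unadjusted p under 0.05 (5.93% of all genes were lower at that level), with a median of −0.60. The summed level of the 18 was 7.87 to 10.1 against 13.9 to 14.4. It includes Dcx, Lhx3 and Neurod4, so the filter itself adds to that gap, and the 15 were not summed alone. Map2 and Nefm differed by −0.51 (SE 0.09) and −0.75 (SE 0.14), Map2 being at −0.27 with normexp. Lhx3, not well above background on either Jmjd3-/- array, was at least 1.51-fold lower with the main processing. The log2 difference of Lhx3 was only −0.19 with normexp, so that bound does not hold under every processing. In a bulk sample, fewer cells of a type and less RNA per cell cannot be told apart.

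Neural progenitor markers had a median of −0.31 over 12 genes. Of these, 1 was lower at an unadjusted p under 0.05, against 5.93% of all genes. The markers had a summed level of 42.9 to 60.9 against 64.1 to 65.4. Their median deviation was −0.55 in Jmjd3-/- replicate 1 and 0.0040 in replicate 9. The genotypes did not overlap for 4 of the 12, all lower, against 23.7% of all genes, among them Fabp7, Vim and Olig2 at −1.16 (SE 0.32), −0.36 (SE 0.15) and −1.03 (SE 0.63). Sox1 and Sox2 were at −0.05 and −0.01, and Irx3 and Msi1 at 0.07 and 0.11. Ccnd2, Ccne1, Cdk4 and Cdkn2d were also lower in replicate 1 than in replicate 9, though Ccnd2 was still 0.18 under the wild-type mean in replicate 9. That order was not particular to them, as Mcm6, Cdc20, Ccna2 and others of the 38 had it too. Replicate 1 was the lowest array for 16 of the 38 genes, against 43.0% of all genes. The part of neural progenitors in the values of cell cycle genes was not tested.

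The blood, vessel and heart lists had medians of −0.40, −0.11 and −0.75. The erythroid median was −0.20 without Jmjd3-/- replicate 1, −0.64 without replicate 9, −0.70 without wild-type replicate 3 and −0.22 without wild-type replicate 4, and the endothelial median was −0.22 without Jmjd3-/- replicate 1. At an unadjusted p under 0.05, 5.93% of all genes were lower, the share to set beside the counts of all 3 lists. Erythroid markers had a summed level of 366 to 516 in Jmjd3-/- and 560 to 713 in wild-type, with 11 of 12 below 0. Lower at that level were 2 of them, Rhag at −0.81 (SE 0.20), or −0.38 with normexp, and Hba-a1 at −0.74 (SE 0.25). Hbb-bh1 was at −0.36 (SE 0.15), and Klf1 was above 0 at 0.55 (SE 0.49). Endothelial markers summed to 27.0 to 27.8 against 29.7 on both wild-type arrays, with 9 of 12 below 0 and 3 lower at that level: Clec14a at −0.59 (SE 0.12), or −0.35 with normexp, Emcn at −0.44 (SE 0.10) and Sox18 at −0.25 (SE 0.08). The 3 above 0 were Flt1 at 0.20 (SE 0.22), Cdh5 at 0.02 (SE 0.11) and Sox17 at 0.01 (SE 0.14). Cardiac markers summed to 4.89 to 6.80 against 8.98 to 13.9, with 9 of 12 below 0 and 5 lower at that level, among them Tnnt2 at −1.41 (SE 0.33) and Myl7 at −1.62 (SE 0.40). Nkx2-5, also among the 5, passed the filter through wild-type, being too dim to count as well above background on Jmjd3-/- replicate 1, and its difference of −1.86 was −0.57 with normexp. The sum and the counts also include Myh6, at −0.01, which was not well above background on all 4 arrays either. With a filter on all 4 arrays, 10 cardiac genes were tested and 7 were below 0. Of the 10, 4 were lower and 2 higher at an unadjusted p under 0.05 (limma). With that filter 10.8% of all genes had such a p, in either direction. Myl2, Nppa and Myh7 were higher in Jmjd3-/- without overlap, at 0.29 (SE 0.10), 0.34 (SE 0.12) and 0.35 (SE 0.14), against 23.0% of all genes. The part of these cells in the cell cycle values was not tested.

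Under all 13 other ways of processing the arrays, including leaving out each array in turn, limma called 0 of the 38 genes. Without Jmjd3-/- replicate 9, Mcm3, Tyms, Ccnd2, Cdk4, Ccne1 and Cdkn2d, 6 of the 38, had an unadjusted p under 0.05, when 28.9% of all genes did. Ccnd2 had such a p with quantile normalisation, when 10.79% of all genes did. With a trend in the prior variance Ccnd2 and Mcm3 had such a p, when 11.03% of all genes did.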

How the data were processed

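Total RNA of 4 samples was read on 1-colour arrays. The intensity of each spot was deposited by the authors as written by Agilent Feature Extraction 10.7.3.1, corrected for background and spatial trend within the array and not scaled between arrays, per the file headers. The deposited log2 table has no stated scale; its values lay within 0.01 of the log2 signal scaled as below and centred on the wild-type mean for 99.9% of probes, and its column medians were −0.02, 0.05, 0.02 and −0.02 (Jmjd3-/- 1 and 9, wild-type 3 and 4).

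Of 45018 spots, 1639 controls were left out. Repeat spots of 1 probe were averaged on the log2 scale, and arrays were scaled to the 75th percentile. RefSeq (GRCm38.p6) named 26690 of 41174 probes by accession and 28 by symbol or synonym. The brightest probe stood for a gene, tested if well above background on both arrays of 1 genotype. limma 3.58.1 (R 4.3.3, lmFit, eBayes) compared genotypes with no covariate, and Benjamini-Hochberg adjusted over all genes. Intervals are 95%, with the moderated SE. An exact permutation test could not go below p = 0.333 and was not used. The fit was tested on simulated data. Normexp (offset 50) used the median spot signal, as the files hold no mean.

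The members and lists were chosen with earlier results of these data known. Arrays are printed for the 3 largest differences of each role and all inhibitors, and the 3 lowest p of each other list are named. Other stretches and genes were chosen after their values were seen. No arrays of a genotype held equal values.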

Additional observations from a re-analysis of the deposited data

How the results depend on the processing

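No paired analysis was possible because the genotypes share no replicate number. The count of cell cycle genes called by limma was 0 of 38 under all 13 alternatives, whereas the count over all genes, 5 in the values reported, was 2 with normexp, 3 with a trend in the prior variance, 0 with quantile normalisation, without a filter and with a filter on all 4 arrays, and 0 to 182 with 1 array left out, 182 without Jmjd3-/- replicate 9 and 48 without replicate 1. With 1 array left out, the lone array of a genotype is assumed to vary like the others. The cause of these moves was not tested.

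Over arrays left out, the median difference ranged from −0.016 to 0.042 for all 38 genes, 0.018 to 0.063 for replication, −0.17 to −0.022 for G1 to S, −0.0084 to 0.078 for mitosis and −0.26 to 0.045 for inhibitors. It ranged from −0.036 to 0.049 for other replication genes, 0.021 to 0.055 for other mitosis genes, −0.028 to 0.038 for RB and E2F genes and 0.036 to 0.054 for other inhibitors and p53 targets. For markers it ranged from −0.55 to 0.0040 for neural progenitors, 0.80 to 1.64 for the tail bud, −0.96 to −0.53 for neurons, −0.70 to −0.20 for erythroid cells, −0.22 to −0.11 for endothelium and −1.01 to −0.63 for heart. Genes called reached 1 for other inhibitors and p53 targets, 4 for neurons, 2 for neural progenitors and 3 for the tail bud, each without Jmjd3-/- replicate 9, and were otherwise 0.

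With median scaling the median was 0.019 for other mitosis genes, −0.032 for RB and E2F genes and 0.027 for other inhibitors and p53 targets. The last was 0.035 with normexp and 0.051 without a filter, neurons were at −0.40 with normexp and −0.60 with a filter on all 4 arrays, and heart at −0.99 when all probes of a gene were averaged. Of the inhibitors, Cdkn1a changed sign with median scaling (−0.015), quantile normalisation (-7.62e-04) and outlier spots left out (−0.0020) and ranged from −0.10 to 0.11 over arrays left out. Cdkn2c was 0.024 with normexp and ranged from −0.34 to 0.28, and Cdkn1b ranged from −0.44 to 0.16. Other cell cycle genes that changed sign were E2f1 with median scaling (−0.016), quantile normalisation (−0.013) and normexp (−0.0025), Plk1 with the last 2 (0.025 and 0.0027), Pcna with quantile normalisation (0.015) and Cdk1 with probes averaged (0.017). Over arrays left out, the difference ranged from −0.022 to 0.087 for Mcm5, −0.055 to 0.11 for Mcm6, −0.025 to 0.078 for Cdc45, −0.071 to 0.048 for Pcna, −0.036 to 0.016 for Rrm1, −0.22 to 0.057 for Ccnd3 and −0.14 to 0.20 for Ccne2. It ranged from −0.12 to 0.083 for Cdk2, −0.13 to 0.13 for E2f1, −0.16 to 0.29 for Ccnb2, −0.035 to 0.12 for Aurka, −0.049 to 0.047 for Plk1, −0.043 to 0.12 for Bub1b and −0.11 to 0.045 for Kif11. No other of the 38 changed sign under an alternative. The number of arrays, 2 per genotype, limits what can be seen.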
